A study of Homo sapiens with 6 samples.

Results

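The S100 proteins and annexins were described across 6 RNA sequencing libraries of OVCAR5, a human ovarian cancer cell line. The members are all protein-coding genes whose symbols are S100A or ANXA followed by a number, together with S100B, S100P, S100G, S100Z and S100PBP, the gene of a protein that binds S100P. Of 62656 genes in the tables, 32 are members: 19 S100 genes, S100PBP and 12 annexin genes. 3 libraries came from cells treated with 100 nM NTX301 and 3 from cells treated with its solvent, dimethyl sulfoxide (DMSO), each for 3 days. All 6 libraries are of this 1 line, with no further genetic change or agent named in the labels. By its label NTX301 is a hypomethylating agent, meaning that it reduces the methyl marks on cytosine in DNA. Whether replicate libraries stem from separate cultures is not stated, and p-values thus rest only on the spread among these libraries, which may be technical.

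S100 proteins are small calcium sensors with a pair of EF-hand loops, and most of them work as dimers. On binding calcium most of them, though not all, open a surface that grips target proteins, and some are also released from cells and act on receptors. Annexins bind acidic phospholipids in the presence of calcium and organise membranes during trafficking, repair and adhesion. The families meet in complexes: S100A10 binds annexin A2, S100A11 binds annexin A1 and S100A6 binds annexin A11. Most S100A genes lie together in a cluster on the long arm of chromosome 1, whereas annexin genes are dispersed over the genome.

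With NTX301, more S100 genes rose than fell, and more annexin genes fell than rose. Of 12 S100 genes with enough counts to be tested, 7 rose, 2 fell and 3 did not pass the threshold, with a median log2 fold change of 0.39. Of 10 tested annexin genes, 2 rose and 8 fell, with a median of -0.39. S100PBP rose by 0.23 ± 0.07 in log2 units (± SE here and below, for fold changes). The test was edgeR's quasi-likelihood test over all genes with Benjamini-Hochberg adjustment and a threshold of 0.05. By this rule 35.4% of all 19029 tested genes rose and 35.1% fell, with a median log2 fold change of 0, and among the 14222 protein-coding ones 38.8% rose and 38.2% fell. In bulk RNA, fewer cells of a type and less RNA per cell cannot be told apart. With a change of 2-fold or more added to the rule, 6 members rose (S100A2, S100A9, S100P, ANXA3, S100A3 and S100A16) and 2 fell (ANXA4 and ANXA2), against 13.4% of all tested genes that rose and 8.55% that fell. The DMSO values of S100A9 and S100A3 lie below the filter on low counts. These 2 were tested only because of their NTX301 counts, so they could be called only as higher. Both are among the 7 S100 genes that rose and the 6 members that rose 2-fold or more, and both enter the median of 0.39. The groups did not overlap for any of the 20 called members, and overlapped for the other 3. Over all tested genes, 37.2% were higher and 36.5% lower with no overlap of the groups.

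Library totals lay between 23194160 and 23842859 estimated counts with NTX301 and between 22131175 and 25743732 with DMSO. CPM below are counts relative to library size scaled by TMM, which centres the typical gene, and TPM are the deposited values, which correct for length. Leaving out the scaling factor moved the median gene to a log2 fold change of 0.21, and on log2(TPM + 1) it lay at 0.17. Without the factor 8793 genes rose and 4732 fell over the whole table, with 9 S100 genes that rose and 2 that fell, and 2 annexin genes that rose and 4 that fell. Members with changes smaller than this shift therefore depend on the scaling, and this is given at each of them. DMSO replicate 3 stood apart from the other DMSO libraries on the second principal component, at -34.47 against 22.54 and 13.47, and it is the lowest DMSO library for most members. Of 8 epithelial markers all were tested, and their summed TPM was 2755 to 2827 with NTX301 and 4482 to 4668 with DMSO. Most of that sum is KRT8 (1180 and 2159 TPM with NTX301 and DMSO) and KRT18 (980.0 and 1794 TPM), while KRT7 (286 and 104 TPM), MUC1 (14.8 and 10.2 TPM) and CDH1 (4.93 and 3.36 TPM) averaged higher with NTX301. Of 6 ovarian and Müllerian markers 2 were tested. PAX8 averaged 9.13 and 5.88 TPM with NTX301 and DMSO, and the other 5 stayed under 1 TPM, with none for SOX17. Among these 5, MUC16 was lower with NTX301, with 54 counts against 240 with DMSO. That list summed to 8.77 to 9.94 TPM with NTX301 and 5.95 to 6.43 TPM with DMSO, mostly from PAX8. The part of these shifts in the members' changes was not tested.

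**Figure D1:**
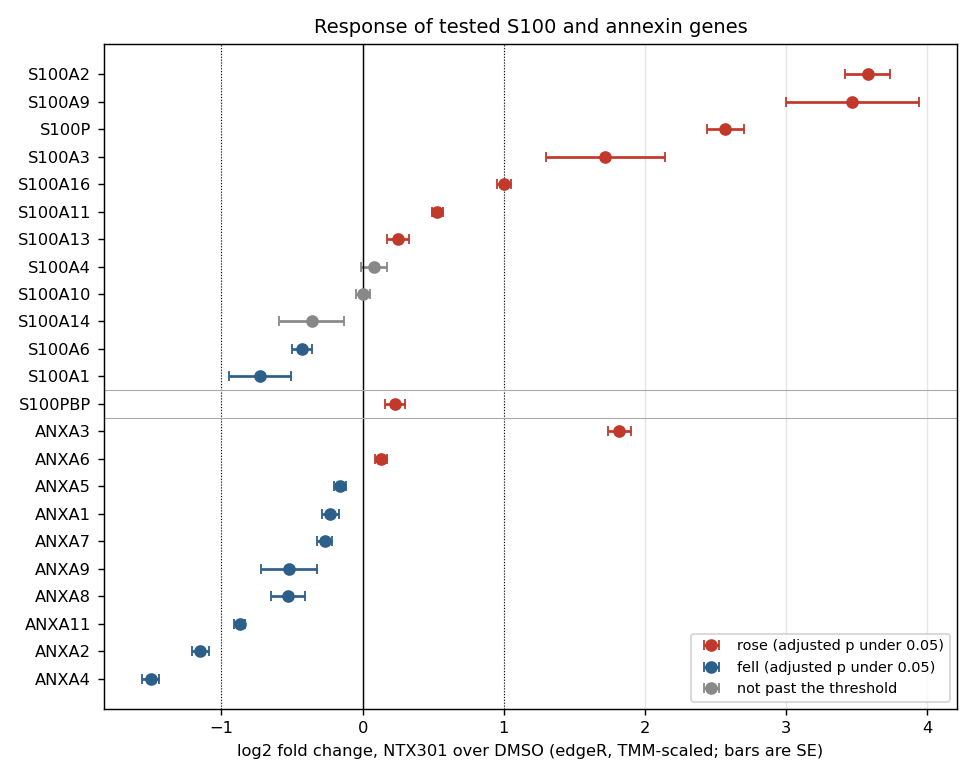
Log2 fold changes of the 23 tested members, NTX301 over DMSO, from edgeR (points, with bars of 1 SE), S100 genes at the top, then S100PBP, then annexins. Dotted lines mark a 2-fold change. S100 genes lie mostly to the right of 0, up to 3.58 for S100A2, and annexins mostly to the left, down to -1.50 for ANXA4, with ANXA3 at 1.82.

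S100A2, a nuclear S100 protein that binds p53 and was first studied as a tumour suppressor candidate of breast epithelium, had the largest rise of the members. It measured 11.5, 11.1 and 10.5 CPM in the NTX301 libraries, against 0.978, 1.12 and 0.626 CPM in the DMSO libraries. The NTX301 values lay close together and far above all DMSO values. The fitted rise was 3.58 ± 0.16 on the log2 scale, 11.9-fold (edgeR adjusted p = 2.2e-09). In TPM it averaged 36.2 ± 2.77 with NTX301 and 2.74 ± 0.93 with DMSO (mean ± SD, n = 3 each). The gene (ENSG00000196754.13) lies on the minus strand of chromosome 1, 153561108 to 153567890 in GRCh38.

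S100P, a secreted and cytoplasmic S100 protein first found in placenta and often raised in pancreatic carcinoma, measured 13.7, 11.3 and 13.7 CPM with NTX301 and 2.21, 2.42 and 1.83 CPM with DMSO. All NTX301 values were above all DMSO values. The rise was 2.57 ± 0.13, 5.95-fold (edgeR adjusted p = 8.7e-09). The gene lies apart from the cluster, on the plus strand of chromosome 4, 6693069 to 6697170. S100PBP, which encodes its binding protein in the nucleus, averaged 17.7 ± 0.714 CPM with NTX301 and 15.1 ± 0.71 CPM with DMSO. The call of S100PBP was lost without DMSO replicate 2 (edgeR adjusted p = 0.057, the highest over its alternatives, which began at 0.00011), and without a scaling factor its log2 fold change was 0.44.

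S100A9 forms calprotectin, an antimicrobial and inflammatory complex of neutrophils, with S100A8. It had 38, 34 and 30 counts in the NTX301 libraries, against 4, 4 and 0 in the DMSO libraries. This is a low level in both groups, 1.35 ± 0.183 CPM with NTX301 and 0.112 ± 0.0972 CPM with DMSO, and the DMSO replicate without counts was replicate 3. The rise was 3.47 ± 0.47 (edgeR adjusted p = 3.5e-05), and 2.95 without DMSO replicate 3. As S100A9 passed the filter on low counts through NTX301 alone, only a rise could be called. The ratio of the summed counts was 11.5, with an exact 95% counting interval of 5.6 to 27.3. S100A8 had 0 counts in all 6 libraries, which allows up to 3 counts over a group, that is 0.0395 CPM with NTX301 and 0.0439 CPM with DMSO. Floors and intervals cover counting error only.

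Of 10 myeloid markers, a cell class in which S100A9 is abundant, 5 were tested and 5 stayed under 1 TPM in each library. Their summed TPM was 83.9 to 91.3 with NTX301 and 46.4 to 52.4 with DMSO, mostly from CD68 (53.5 and 27.9 TPM) and CD14 (27.2 and 16.7 TPM). LYZ alone of the list averaged lower with NTX301, at 2.4 TPM against 2.98 TPM with DMSO. The leukocyte surface protein PTPRC had 7 counts with NTX301 and 0 with DMSO, and the neutrophil receptor FCGR3B had 0 in both. Of 8 squamous markers, a class in which S100A2 and S100A7 are abundant, KRT14 and KRT1 had no counts and KRT5 averaged 1.52 TPM with NTX301 and 0.25 TPM with DMSO. The squamous list summed to 30.0 to 34.3 TPM with NTX301 and 19.2 to 24.8 TPM with DMSO, mostly from KRT10. The part of these cell classes in the rises of S100A9 and S100A2 was not tested.

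S100A16, a widely expressed S100 protein, measured 137, 133 and 132 CPM with NTX301 and 69.6, 69.5 and 61.9 CPM with DMSO. The groups were well apart, and the rise was 1.00 ± 0.05 on the log2 scale (edgeR adjusted p = 5.1e-09). S100A16 sits at the 2-fold line: with NTX301 replicate 1 left out its log2 fold change was 0.98, and with DMSO replicate 3 left out it was 0.94. S100A3, a cysteine-rich S100 protein of hair cuticle, had 28, 19 and 16 counts with NTX301 and 8, 7 and 2 with DMSO. It rose by 1.72 ± 0.42 (edgeR adjusted p = 0.00327) from few counts, and its gene overlaps the far more abundant S100A4 on the same strand, so the division of reads between them is uncertain. S100A3 too passed the filter on low counts through NTX301 alone, so only a rise could be called.

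S100A11, which binds annexin A1 and acts in membrane repair and keratinocyte growth control, rose by 0.53 ± 0.04 to 195, 185 and 176 CPM with NTX301, against 132, 127 and 126 CPM with DMSO. In TPM it averaged 719 ± 23.6 with NTX301 and 431 ± 4.28 with DMSO (n = 3 each). S100A13, which takes part in the release of fibroblast growth factor 1, rose by 0.25 ± 0.08 (edgeR adjusted p = 0.0126), a call lost without NTX301 replicate 1 (adjusted p = 0.05 as rounded, over alternatives from 0.00019 to 0.05). The log2 fold change of S100A13 was 0.15 without DMSO replicate 3 and 0.46 without a scaling factor. S100A1, a calcium sensor best known from heart muscle, fell by 0.73 ± 0.22 (edgeR adjusted p = 0.0103), a call not made by DESeq2 (adjusted p = 0.068, over alternatives from 0.002 to 0.068). S100A13 and S100A1 overlap on opposite strands. ENSG00000271853 (mean 1.7 CPM with NTX301 and 2.63 CPM with DMSO, log2 -0.62) also overlaps S100A1 on the other strand. So does ENSG00000272030 (1.32 and 2.18 CPM, log2 -0.72), while S100A1 averaged 0.937 and 1.55 CPM. As the sources used here give no strand setting, the reads of these genes may not have been separated.

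S100A6, also called calcyclin and abundant in proliferating cells, had the highest TPM of the S100 genes. It measured 181, 170 and 167 CPM with NTX301, against 257, 237 and 201 CPM with DMSO, with no overlap. The fall was 0.43 ± 0.07 on the log2 scale (edgeR adjusted p = 0.00025), and the log2 difference was -0.21 on log2(TPM + 1) (limma adjusted p = 0.034, the highest over its alternatives, which began at 2.4e-09). S100A10, the light chain of the annexin A2 complex, measured 226, 222 and 207 CPM with NTX301 and 232, 216 and 207 CPM with DMSO. These values overlapped, with a log2 fold change of 0.00 ± 0.05 (edgeR adjusted p = 0.994). Without a scaling factor S100A10 was higher by 0.21 (edgeR adjusted p = 0.0015, over alternatives from 0.0015 to 0.97), as large as the shift of the typical gene.

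S100A4, a metastasis-associated S100 protein that binds non-muscle myosin and serves as a fibroblast marker, measured 39.7, 42.6 and 39.7 CPM with NTX301, against 41.4, 42.1 and 31.9 CPM with DMSO. It was not past the threshold (log2 0.08 ± 0.09, edgeR adjusted p = 0.45), and its sign turned without DMSO replicate 3 (log2 -0.05). It was past the threshold as higher without a scaling factor (0.28, edgeR adjusted p = 0.01, over alternatives from 0.01 to 0.73). Of 7 fibroblast markers 4 were tested, and they summed to 19.6 to 20.2 TPM with NTX301 and 5.01 to 5.68 TPM with DMSO. COL1A1 averaged 15.8 TPM with NTX301 and 3.87 TPM with DMSO and PDGFRB 2.84 and 0.317 TPM, while COL1A2 had 3 counts with NTX301 and 0 with DMSO. LUM alone of the list averaged lower with NTX301, at 0.77 TPM against 1.06 TPM with DMSO. The part of fibroblast markers in the S100A4 values was not tested. S100A14, an epithelial S100 protein, had 90 counts over the NTX301 libraries and 104 over the DMSO libraries and was not past the threshold (log2 -0.36 ± 0.23, edgeR adjusted p = 0.187).

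**Figure D2:**
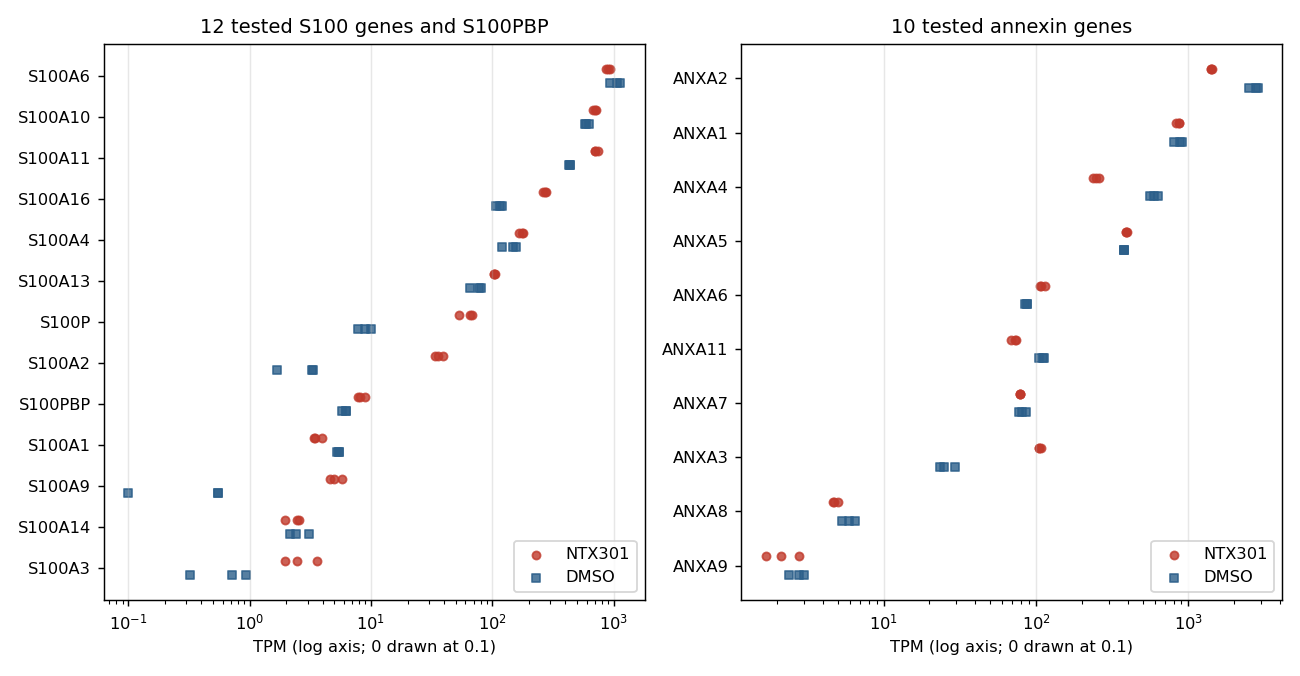
TPM of each tested member in each library on a log axis, for S100 genes with S100PBP (left) and annexins (right); circles are NTX301 libraries and squares are DMSO libraries, and a value of 0 is drawn at the left edge. S100A2, S100P and S100A9 have NTX301 points well to the right of their DMSO points, and among annexins ANXA3 has them to the right and ANXA2 and ANXA4 to the left.

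7 S100 genes had too few counts to be tested. S100A12, which like S100A9 belongs to neutrophils, and S100G, the intestinal calcium carrier calbindin D9k, had 0 counts in all libraries, as had S100A8. S100A7, the psoriasin of inflamed skin, had 1 count with NTX301 and 0 with DMSO. S100B, the S100 protein of glia and melanocytes, had 5, 6 and 6 counts with NTX301 and 0, 0 and 1 with DMSO, a ratio of 15.3 with an exact 95% counting interval of 2.39 to 639. Without the filter on low counts S100B was called as higher (edgeR adjusted p = 0.0071), though with so few DMSO counts only a rise could be called. S100A5 had 11 and 7 counts and S100Z 6 and 3 counts over the NTX301 and DMSO libraries. Of 6 melanocyte and glial markers 3 were tested, with sums of 13.1 to 16.4 TPM with NTX301 and 10.2 to 11.7 TPM with DMSO, and SOX10 had 1 count with NTX301 and 2 with DMSO. Their part in the S100B counts was not tested.

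Along the cluster, on chromosome 1 between 151982915 and 153632039 in GRCh38, neighbouring S100A genes did not move alike. In genomic order, S100A10 was not past the threshold, S100A11 rose, S100A9 rose, and S100A12, S100A8 and S100A7 stayed at 1 count or none. Then S100A6 fell, S100A5 was not tested, S100A4 was not past the threshold, and S100A3, S100A2 and S100A16 rose. S100A14 was not past the threshold, S100A13 rose and S100A1 fell. Between these outermost S100A genes lie 49 other protein-coding genes, of which 3 were tested. TCHH, the gene of trichohyalin, a hair follicle protein with an S100-like amino end, rose by 1.70 ± 0.22 to 3.34 ± 0.381 CPM with NTX301, against 1.02 ± 0.318 CPM with DMSO (n = 3 each). HRNR, which encodes hornerin, was not past the threshold (log2 0.23, edgeR adjusted p = 0.112), and SPRR2F, of the cornified envelope, fell by 0.94 (edgeR adjusted p = 0.0136). The NTX301 counts of SPRR2F (11, 15 and 9) were too few to meet the filter on low counts without DMSO.

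**Figure D3:**
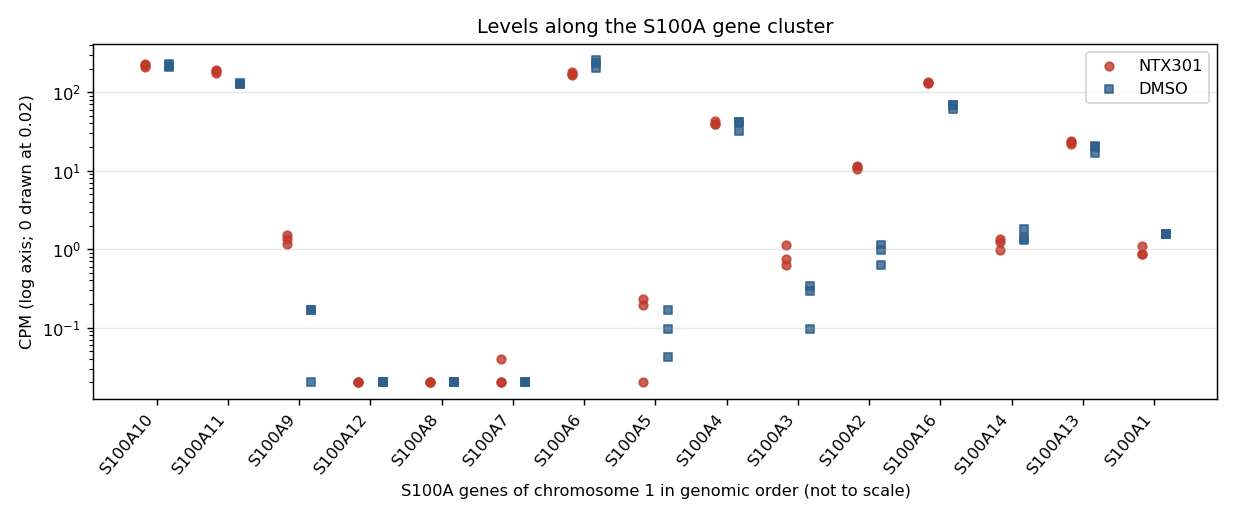
CPM on a log axis of the 15 S100A genes of chromosome 1 in genomic order, evenly spaced, in the 3 NTX301 libraries (circles, left of each position) and the 3 DMSO libraries (squares, right), with values of 0 drawn at the lower edge. S100A9, S100A3, S100A2 and S100A16 have NTX301 points above DMSO points, while S100A10 and S100A4 overlap.

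ANXA2, the most abundant member in TPM and 47th among all genes by mean TPM, encodes annexin A2, which with S100A10 binds plasminogen and tissue plasminogen activator at the cell surface and links membranes to actin. It measured 1066, 1068 and 1027 CPM with NTX301, against 2463, 2447 and 2108 CPM with DMSO. The NTX301 values were within a narrow range and all below the DMSO values. The fall was 1.15 ± 0.06 on the log2 scale, 2.22-fold lower (edgeR adjusted p = 7.4e-09), and on log2(TPM + 1) the difference was -0.94. The gene lies on the minus strand of chromosome 15, 60347134 to 60402883. Its processed copy ANXA2P2 had 3424 counts with NTX301 and 6650 with DMSO (log2 -1.11 ± 0.06), and the division of reads between them is uncertain.

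ANXA4, an epithelial annexin that is abundant in clear cell carcinoma of the ovary, fell the most. It measured 229, 244 and 210 CPM with NTX301 and 656, 673 and 599 CPM with DMSO, 2.82-fold lower (log2 -1.50 ± 0.06, edgeR adjusted p = 1.1e-09). The gene lies on the plus strand of chromosome 2, 69644425 to 69827100. ANXA11, which tethers RNA granules to lysosomes and acts in cytokinesis, measured 111, 107 and 108 CPM with NTX301, against 203, 205 and 185 CPM with DMSO, a fall of 0.87 ± 0.04. For both genes the groups were far apart relative to the spread within them.

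ANXA3, which promotes angiogenesis and has been linked to platinum resistance in ovarian cancer, rose, against 8 of the 10 tested annexin genes. It measured 76.2, 75.7 and 71.7 CPM with NTX301 and 24.8, 18.9 and 19.8 CPM with DMSO. The rise was 1.82 ± 0.08, 3.52-fold (edgeR adjusted p = 2.3e-09). The gene lies on the plus strand of chromosome 4, 78551519 to 78610451. ANXA6, the annexin with a doubled core, rose by 0.13 ± 0.04, to 139, 138 and 142 CPM with NTX301 against 132, 128 and 122 CPM with DMSO. Without a scaling factor its log2 fold change was 0.34, and on log2(TPM + 1) the difference was 0.34. This small call was lost without the filter on low counts (edgeR adjusted p = 0.068, over alternatives from 6.4e-06 to 0.068).

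ANXA1, the glucocorticoid-induced annexin that limits inflammation, had the second highest TPM of the annexins. It measured 616, 593 and 591 CPM with NTX301, against 752, 716 and 639 CPM with DMSO, a fall of 0.23 ± 0.06 (edgeR adjusted p = 0.00309). ANXA5, whose protein is used to stain dying cells for exposed phosphatidylserine, measured 321, 325 and 311 CPM with NTX301 and 363, 359 and 345 CPM with DMSO, a fall of 0.16 ± 0.04 (edgeR adjusted p = 0.00332). ANXA7, a membrane fusion annexin, fell by 0.27 ± 0.05 (edgeR adjusted p = 0.00079). These 3 falls are about the size of the shift of the typical gene. On log2(TPM + 1), ANXA1 was at -0.01, ANXA7 at -0.05 and ANXA5 at 0.05, none past the threshold (limma adjusted p = 0.82, 0.32 and 0.17, in this order), so the sign of ANXA5 turned. Over their alternatives the adjusted p ran from 2.5e-05 to 0.82 for ANXA1, 2.6e-05 to 0.32 for ANXA7 and 0.00046 to 0.24 for ANXA5.

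ANXA8, known from basal and squamous epithelia, fell by 0.53 ± 0.12 to 4.85 ± 0.286 CPM with NTX301, against 6.97 ± 0.898 CPM with DMSO (n = 3 each). It has a near-identical copy, ANXA8L1, with 62 counts with NTX301 and 75 with DMSO, so its level is uncertain. Without a scaling factor the log2 fold change was -0.32 for ANXA8 and -0.31 for ANXA9. ANXA9, an annexin with altered calcium-binding sites, fell by 0.52 ± 0.20 (edgeR adjusted p = 0.0356). Its call was lost in 7 of 12 alternatives, among them DESeq2 (adjusted p = 0.11) and leaving out NTX301 replicate 1 (adjusted p = 0.13), 2 (0.084) or DMSO replicate 2 (0.08) or 3 (0.087), over a range from 0.015 to 0.19. ANXA10, a gastric annexin, was not tested, with 16, 9 and 7 counts with NTX301 and 1, 1 and 1 with DMSO, a ratio of 9.59 with an exact 95% counting interval of 3.0 to 48.9. Without the filter on low counts ANXA10 was called as higher (edgeR adjusted p = 0.0006), and here too only a rise could be called from so few DMSO counts. ANXA13, of intestine and kidney, had 14 counts with NTX301 and 11 with DMSO.

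Summed over all 19 S100 genes, the level was 3047, 2912 and 2950 TPM with NTX301, against 2549, 2473 and 2254 TPM with DMSO. Summed over all 12 annexin genes, it was 3289, 3255 and 3304 TPM with NTX301, against 4985, 5059 and 4555 TPM with DMSO. The log2 differences were 0.29 for S100 and -0.57 for annexins, with no overlap of the groups in either (exact permutation test, two-sided, p = 0.1 for each, the smallest that 3 against 3 libraries allow). With TMM-scaled CPM per kilobase in place of TPM they were 0.084 (exact p = 0.4) and -0.776 (exact p = 0.1). S100A6, S100A11 and S100A10 held 30.2%, 24.2% and 23.4% of the S100 sum with NTX301, against 42.9%, 17.8% and 24.8% with DMSO. ANXA2 held 43.1% of the annexin sum with NTX301 and 55.8% with DMSO.

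Ratios between binding partners within a library do not depend on the scaling. The TPM of S100A10 was 0.502, 0.493 and 0.476 of that of ANXA2 with NTX301, against 0.223, 0.209 and 0.232 with DMSO, 2.22-fold higher. S100A11 to ANXA1 was 0.86, 0.849 and 0.811 with NTX301, against 0.478, 0.482 and 0.539 with DMSO, 1.68-fold higher. S100A6 to ANXA11 was 12.7, 12.6 and 12.1 with NTX301, against 10.2, 9.47 and 8.86 with DMSO, 1.31-fold higher. In all 3 pairs every NTX301 library lay above every DMSO library (exact permutation test, two-sided, p = 0.1 each, the smallest possible). In the edgeR fit ANXA2 fell while S100A10 was not past the threshold, S100A11 rose while ANXA1 fell, and S100A6 and ANXA11 both fell. These are RNA ratios, and protein was not measured in these files.

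**Figure D4:**
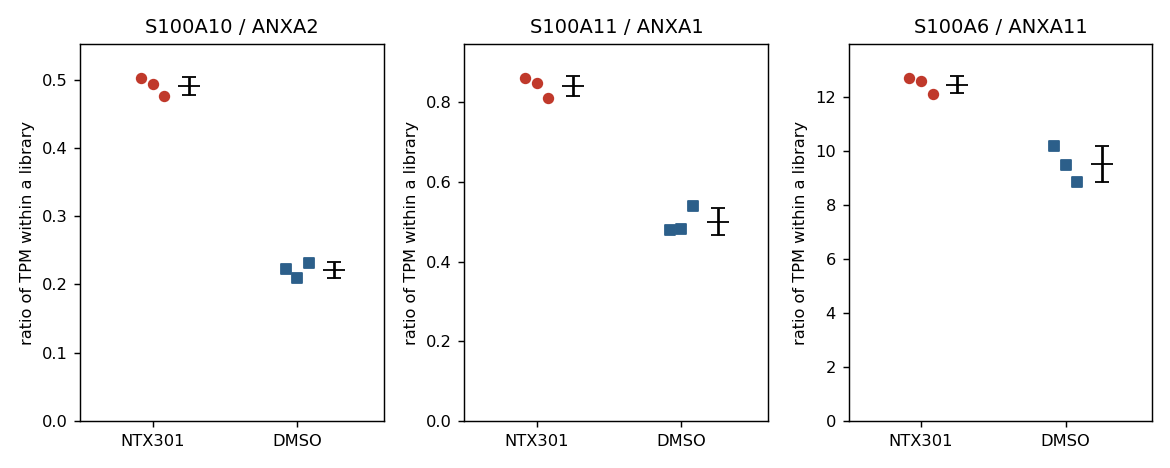
Ratio of TPM of an S100 gene to its annexin partner in each library, NTX301 (circles) left of DMSO (squares), with the mean and SD of 3 libraries in black. All 3 ratios are higher with NTX301, 0.491 against 0.221 for S100A10 to ANXA2.

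The start regions of 3 S100 genes and 3 annexin genes that changed 2-fold or more are shown because the drug acts on CpG cytosines, and CpG sites are in capitals. S100A3 and S100A16, which also rose 2-fold or more, are not shown. Each is the 250 bases before a RefSeq start (GRCh38.p14), 5′ to 3′ on the gene's strand. S100A2 has another start downstream, and ANXA4 another one too, which are not shown. The regions are chr1:153565845-153566094 (minus strand) for S100A2, chr4:6693628-6693877 (plus) for S100P, chr1:153357604-153357853 (plus) for S100A9, chr4:78551520-78551769 (plus) for ANXA3, chr15:60397987-60398236 (minus) for ANXA2 and chr2:69643558-69643807 (plus) for ANXA4.
S100A2: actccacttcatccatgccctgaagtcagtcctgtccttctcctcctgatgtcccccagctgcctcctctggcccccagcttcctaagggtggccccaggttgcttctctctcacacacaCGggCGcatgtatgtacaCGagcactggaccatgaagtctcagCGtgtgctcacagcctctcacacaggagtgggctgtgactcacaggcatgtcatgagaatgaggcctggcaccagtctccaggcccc
S100P: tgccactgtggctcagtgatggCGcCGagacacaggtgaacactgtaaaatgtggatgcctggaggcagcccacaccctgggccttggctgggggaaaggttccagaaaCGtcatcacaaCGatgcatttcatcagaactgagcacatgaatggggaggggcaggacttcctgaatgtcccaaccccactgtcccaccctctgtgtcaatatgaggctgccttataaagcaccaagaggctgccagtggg
S100A9: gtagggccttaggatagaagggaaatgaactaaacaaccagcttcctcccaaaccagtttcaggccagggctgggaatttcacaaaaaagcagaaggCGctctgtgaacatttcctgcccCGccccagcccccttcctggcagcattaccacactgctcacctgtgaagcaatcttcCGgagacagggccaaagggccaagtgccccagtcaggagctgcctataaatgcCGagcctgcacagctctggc
ANXA3: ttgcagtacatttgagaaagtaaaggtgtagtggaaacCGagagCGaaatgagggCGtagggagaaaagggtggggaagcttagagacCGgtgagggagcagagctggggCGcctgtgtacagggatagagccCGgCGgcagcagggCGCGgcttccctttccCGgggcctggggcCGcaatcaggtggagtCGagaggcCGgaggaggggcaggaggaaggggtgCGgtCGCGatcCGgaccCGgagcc
ANXA2: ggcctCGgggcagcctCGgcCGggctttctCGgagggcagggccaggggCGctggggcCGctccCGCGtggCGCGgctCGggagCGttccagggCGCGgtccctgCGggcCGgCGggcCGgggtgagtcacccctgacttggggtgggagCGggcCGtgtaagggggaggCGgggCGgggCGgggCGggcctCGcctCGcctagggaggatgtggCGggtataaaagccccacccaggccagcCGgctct
ANXA4: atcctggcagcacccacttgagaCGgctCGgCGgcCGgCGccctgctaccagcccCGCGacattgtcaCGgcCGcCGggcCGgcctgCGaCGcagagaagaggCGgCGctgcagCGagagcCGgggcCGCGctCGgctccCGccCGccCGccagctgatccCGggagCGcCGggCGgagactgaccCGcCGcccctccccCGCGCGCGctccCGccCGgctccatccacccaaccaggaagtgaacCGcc
The first 3, from S100 genes that rose, hold 4 CpG each. ANXA3, which also rose, holds 18, and ANXA2 and ANXA4, which fell, hold 28 and 36.

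Windows from 250 bases before to 50 after the start were counted for 29 members, with 42 windows among them. S100 windows had a median of 5 CpG and annexin windows a median of 24, against 14 in all 35116 windows (quartiles 4 and 28). The S100 genes that rose 2-fold or more had between 3 and 8 CpG per window. Among the members that fell, ANXA2 had 32, ANXA4 44 and 27 at its 2 starts, and S100A6 31, whereas ANXA1 had 0 and S100A1 6. S100A11 rose with 22 and ANXA3 with 25, and S100A10, not past the threshold, had 32. Low CpG counts occurred among members of all 3 outcomes. Methylation was not analysed here, so these counts describe the sequence alone.

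Motifs were searched on both strands of the same windows, and matches are letters in a window and not shown sites of binding. The TATA box TATAAA was present in the windows of S100P, S100A9, S100A4, ANXA1 and ANXA2 among tested members with 1 start. Among those with more starts, it was present at 1 start each of S100A13 and ANXA11, against 11.5% of all windows. The palindromic AP-1 motif TGANTCA was present in those of S100A2 (at the start shown), S100A3 and ANXA2 and at 1 start of S100PBP, against 7.71% of all windows. The GC box GGGCGG occurred 6 and 3 times at the 2 ANXA4 starts and 3 times each in ANXA2, S100A6 and ANXA7. It occurred 4 times at 1 start of ANXA11 and up to 3 times at a start of S100PBP. Single copies lay in the windows of S100A9, S100A3, S100A11, S100A10 and ANXA5, and at 1 start each of S100A16, S100A13 and ANXA6. The windows of the other tested members held none. At least 1 copy was present in 45.0% of all windows, and copy numbers were not compared with all windows.

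**Figure D5:**
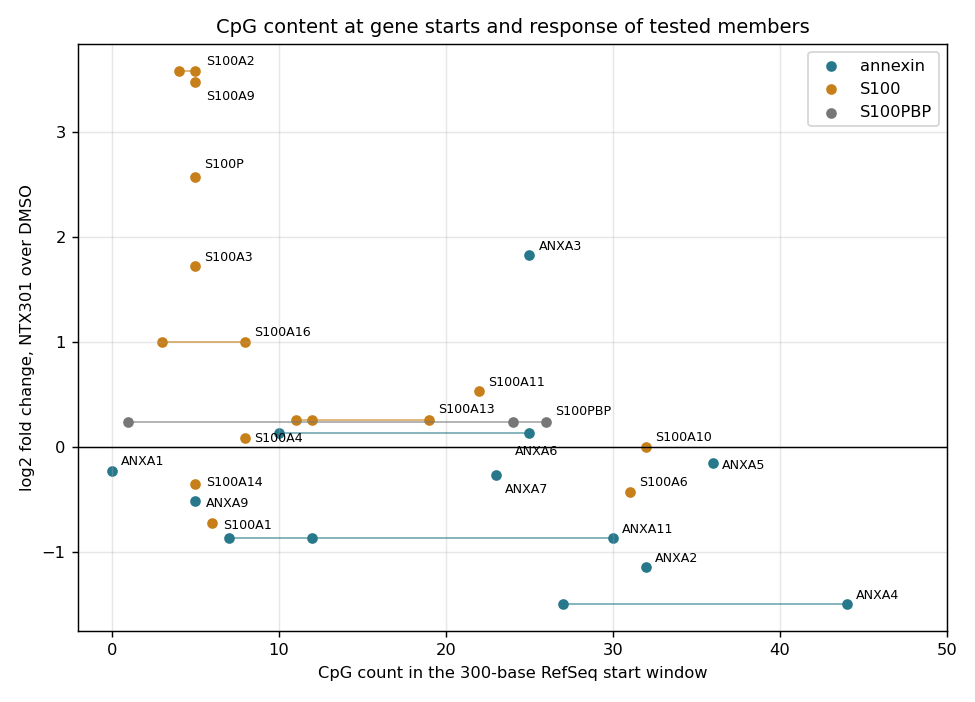
CpG count in the 300-base start window (x) against log2 fold change, NTX301 over DMSO (y), for tested members with a RefSeq window; a line joins the starts of 1 gene. S100A2, S100A9 and S100P lie at 4 or 5 CpG, and ANXA2 and ANXA4 lie at the lower right.

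Genes that work with S100 proteins and annexins were counted from lists. Over all tested genes 35.4% rose and 35.1% fell, and over protein-coding ones 38.8% and 38.2%. The list counts were not tested against these shares. Of 40 tested binding partners and substrates, 20 rose and 14 fell (median log2 fold change 0.12). These counts include ALG2, a mannosyltransferase listed by mistake because it shares a name with PDCD6, itself in the list; ALG2 rose by 0.22. KCNK3, a potassium channel that S100A10 carries to the membrane, rose by 3.84 ± 0.13 to 23.5 ± 1.28 CPM with NTX301, against 1.62 ± 0.418 CPM with DMSO (n = 3 each). OTOF, a ferlin known from hair cells, rose by 2.56 ± 0.22, and FKBP4, an immunophilin whose repeat domain S100 proteins bind, by 1.29 ± 0.04. PLG, which encodes the plasminogen bound by the annexin A2 complex, fell by 2.84 ± 0.21 to 0.918 ± 0.357 CPM with NTX301, against 6.62 ± 0.658 CPM with DMSO. EZR, the ezrin that S100P activates, fell by 1.07 ± 0.04, and PLAT, tissue plasminogen activator, rose by 1.01 ± 0.05. EZR and PLAT were chosen after their values were seen.

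Of 14 tested receptors of released S100 proteins and annexins, 4 rose and 7 fell (median -0.16), beside 35.4% and 35.1% of all tested genes. AGER, the receptor for advanced glycation end products that binds several S100 proteins, was not past the threshold (log2 -0.21, edgeR adjusted p = 0.193), nor was TLR4, the receptor of calprotectin (0.08, adjusted p = 0.306), both chosen after their values were seen. ERBB3, a receptor of the EGF receptor family, fell by 1.83 ± 0.06 and LRP1, an endocytic receptor, by 1.39 ± 0.04. SLC1A5, a glutamine transporter, fell by 0.71 ± 0.04, and TLR2 rose by 0.99 ± 0.21. Of 28 genes of membrane repair and calcium-dependent membrane binding, 9 rose and 15 fell (median -0.15), beside the same shares of all tested genes. DYSF, which encodes dysferlin, a membrane repair partner of annexins, rose by 1.21 ± 0.06, while CAPN1, a calcium-dependent protease, fell by 1.09 ± 0.04 and the copine CPNE7 by 1.47 ± 0.06. SYT11, a synaptotagmin, rose by 1.45 ± 0.11.

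Of 33 tested EF-hand calcium sensors outside the S100 family, 10 rose and 15 fell (median -0.18), beside 35.4% and 35.1% of all tested genes. HPCAL4, a neuronal calcium sensor, rose by 4.23 ± 0.19 to 8.35 ± 0.891 CPM with NTX301, against 0.446 ± 0.124 CPM with DMSO (n = 3 each). The DMSO counts of HPCAL4 (10, 8 and 12) were too few to meet the filter on low counts without NTX301. CALB2, which encodes calretinin, rose by 1.44 ± 0.13 and EFHD1, a mitochondrial calcium sensor, by 1.11 ± 0.23. RCN3, of the secretory pathway, fell by 1.58 ± 0.18. The medians of these 4 lists are smaller in size than the shift of the typical gene without a scaling factor (0.21). On log2(TPM + 1) that shift was 0.17, about the size of the EF-hand median. Of 29 fused S100 genes and cornified envelope genes of the same chromosome region, 3 were tested, the same 3 that lie between the outermost S100A genes.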

How the data were processed

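RNA sequencing of OVCAR5 cells was compared between 3 libraries treated with 100 nM NTX301 and 3 treated with DMSO for 3 days, grouped and numbered by the labels. The labels' protocols also name methylation arrays and a lower dose, not analysed here. Per the labels' protocols, libraries were made from total RNA with a NEBNext Ultra II kit.

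Each library has a table of genes in the RSEM format, per the file headers. The authors' expected counts are estimates of reads assigned to a gene and are not normalized. The deposited TPM values are length-corrected abundances scaled to the same total in each library. The deposited effective lengths, in bases, were used only for CPM per kilobase. The sources used here name no aligner, version, genome build, annotation or strand setting. RSEM divides reads that match several genes, so copies such as ANXA2P2 or ANXA8L1 are uncertain.

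Each table had 62703 entries. The 47 pseudoautosomal entries of chromosome Y (0.0224% of counts) were added to their X copies. Symbols came from a table of gene names for 62639 genes by stable identifier, and positions and gene types from GENCODE 29 (GRCh38) for 58220. Expected counts were rounded and tested with edgeR 4.0.16 in R 4.3.3 (filterByExpr, TMM, glmQLFit and glmQLFTest, all 6 libraries, treatment as the only term), Benjamini-Hochberg adjusted over 19029 genes, threshold 0.05. The fit was tested on simulated data. CPM are TMM-scaled. SEs are the fold change divided by the root of F. Alternatives used DESeq2 1.42.0, limma 3.58.1 on log2(TPM + 1), other scalings, no filter, a replicate block and leaving out each library. Named were members called at 2-fold or more averaging 1 CPM, the 6 of highest TPM, members where a role is described, and up to 4 genes per list with the largest called change averaging 1 CPM. Members, lists and rules were chosen with earlier results of these data known. Within a treatment, the chi-square statistic between 2 libraries was 2.37 to 6.57 times its degrees of freedom, so none was taken for a duplicate.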

Additional observations from a re-analysis of the deposited data

How the results depend on the processing

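Without a scaling factor and on log2(TPM + 1), 4 annexin genes fell in place of 8, and 1 member in place of 2 fell 2-fold or more. On log2(TPM + 1), 4318 of all tested genes fell in place of 6677. DESeq2 called 1 S100 gene lower in place of 2. The log2 difference of summed TPM with TMM-scaled CPM per kilobase was 0.084 for S100, in place of 0.294, and -0.776 for annexins, in place of -0.567. The sign of ANXA5 turned without a scaling factor (log2 0.049) and on log2(TPM + 1) (0.051), and that of S100A10 without the filter on low counts (-0.028). The causes were not tested.

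Leaving out 1 library at a time gave 6 to 7 S100 genes that rose, 2 that fell, 2 annexin genes that rose and 7 to 8 that fell, 5 to 6 members that rose 2-fold or more and 2 that fell so, and 6400 to 6698 of all tested genes that rose and 6319 to 6645 that fell. The log2 differences ranged from 0.242 to 0.331 for summed S100, -0.613 to -0.538 for summed annexins, 1.109 to 1.184 for S100A10 to ANXA2, 0.72 to 0.807 for S100A11 to ANXA1 and 0.345 to 0.448 for S100A6 to ANXA11. The log2 fold change of S100A10 ran from -0.05 to 0.038 and that of S100A4 from -0.051 to 0.136, so both crossed 0.

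Same-numbered libraries did not deviate together (correlations 0.08, -0.028 and 0.043), so the numbers were not taken as a pairing. With the replicate number as a block, 7 S100 genes rose and 2 fell, 2 annexin genes rose and 8 fell, 6 members rose 2-fold or more and 2 fell so, and 6837 of all tested genes rose and 6749 fell. No call of the 23 tested members changed under the block. Depth limits the members under the filter, where a count of 0 allows up to 3 counts over a group.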
